A study of Mus musculus with 9 samples.

Results

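The 10 genes described here carry out or control steroid hormone synthesis in the ovary. They were chosen by name from a table of 19517 genes, and all 10 were present and tested in each of the 3 comparisons of the study. They are Scarb1 and Star, which bring cholesterol to the site of synthesis, the enzyme genes Cyp11a1, Hsd3b1, Cyp17a1, Cyp19a1, Hsd17b1 and Akr1c18, the receptor gene Lhcgr and the transcription factor gene Nr5a1.

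RNA-seq was done on ovarian tissue from BALB/c nude females, which lack a thymus, and mice of every group bore tumours grown from the human breast cancer line MDA-MB-231. The UT group (3 libraries) had no treatment, the CTX group (3 libraries) had cyclophosphamide, an alkylating chemotherapy drug, and the CAU group (3 libraries) had caulerpin, an alkaloid of green algae. Only caulerpin is named for CAU, and whether those mice also had cyclophosphamide is unknown here, as are age, dose, time and cycle stage. Replicates carry numbers and no mouse names, and the p-values measure spread among these libraries, part of which may be technical.

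The values are those of the authors' deposited table, which lists for each gene and comparison the log2 fold change with the p-value and adjusted p of DESeq2, and no value for any library. In a column named for a pair of groups, the group named second was taken as the numerator, which its header does not state. The opposite reading would turn every sign. The standard error (SE) beside a log2 fold change is the one that its deposited p-value implies. A gene is said to have passed when its deposited adjusted p was under 0.05. Sequencing depth is unknown here, and without levels the tissue label could not be checked against the abundance of ovarian markers. All 11 oocyte and all 11 granulosa markers listed were present, but presence among 19517 genes says nothing of their level and is no check of the tissue. In bulk tissue, fewer cells of a type and less RNA per cell cannot be told apart.

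Steroid synthesis begins when cholesterol is moved into mitochondria, where its side chain is removed to give pregnenolone. Theca cells turn this into androgens under luteinizing hormone, granulosa cells turn androgens into estrogens under follicle-stimulating hormone, and the corpus luteum makes progesterone. The transcription factor encoded by Nr5a1, called SF-1, binds the promoters of many of these genes.

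By the DESeq2 test, none of the 10 genes passed in any comparison. Over all genes, 1.29% passed in CTX against UT, 0.442% in CAU against CTX and 0.0518% in CAU against UT, so a count of 0 among 10 is near the background. By direction these shares were 0.472% higher and 0.820% lower, 0.312% higher and 0.130% lower, and 0.0311% higher and 0.0207% lower. For CTX against UT this was 91 genes higher and 158 lower, which became 156 higher and 134 lower once the genome-wide median was subtracted. At an adjusted p under 0.10 the members numbered 1, 1 and 0, beside 2.15%, 0.608% and 0.0570% of all genes. By the DESeq2 p-value before adjustment, 2 members were under 0.05 in CTX against UT (10.2% of all genes were), 3 in CAU against CTX (5.36% of all genes) and 2 in CAU against UT (3.46% of all genes). The median log2 fold change of the members was 0.27 in CTX against UT, 0.04 in CAU against CTX and 0.21 in CAU against UT, beside -0.03, 0.00 and -0.01 over all genes tested. The estrogen-forming genes Cyp19a1 and Hsd17b1 had the highest values per SE in CTX against UT, and Nr5a1 lay nearest the threshold in CAU against CTX.

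**Figure D1:**
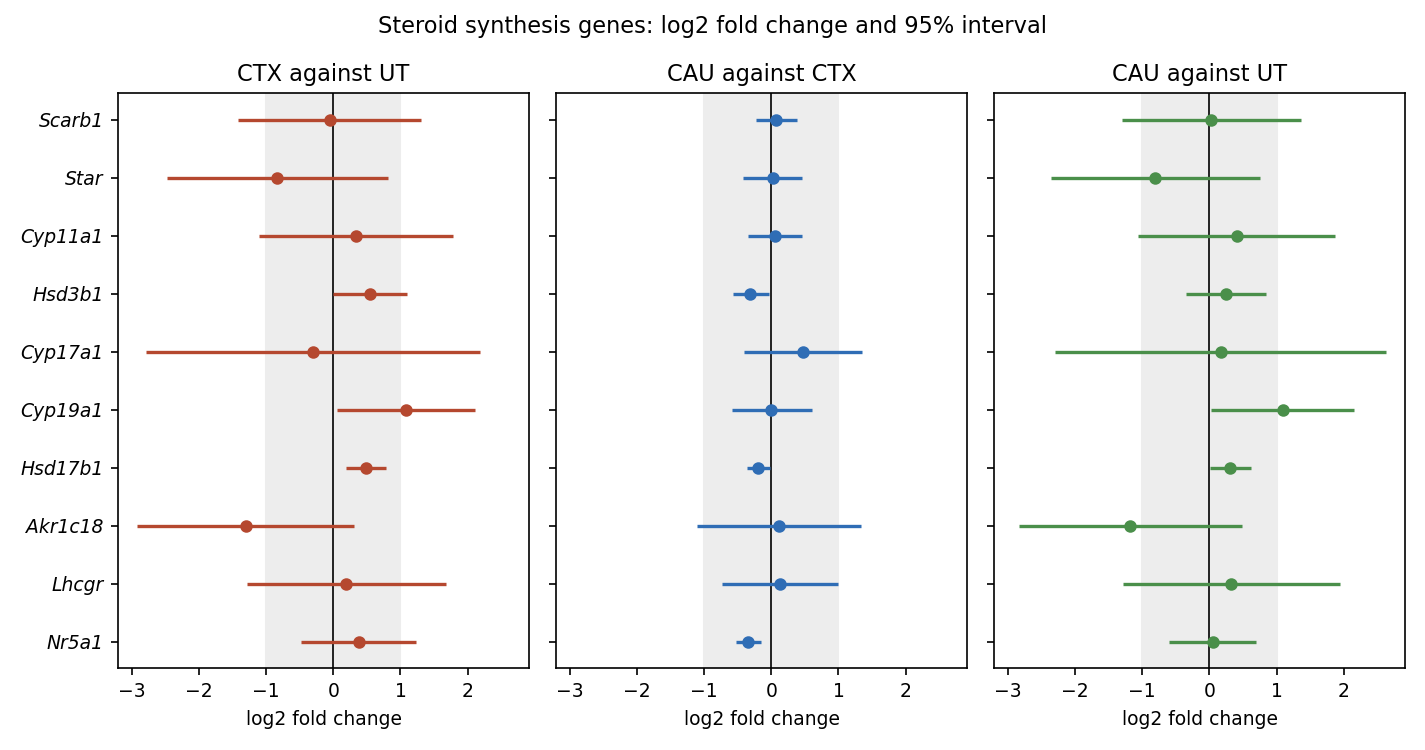
Log2 fold change (points) and 95% interval (bars) of the 10 genes in the 3 comparisons, with the range within 2-fold shaded. Intervals were narrow in CAU against CTX, where 7 of 10 lay within 2-fold, and wide in both comparisons with UT, where 1 and 3 did.

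Scarb1 (chr5:125277087-125341094, minus strand, GRCm38.p6) encodes the receptor that takes up cholesterol esters from high-density lipoprotein. In the authors' deposited table it was at -0.05 (SE 0.69) in CTX against UT, 0.07 (SE 0.16) in CAU against CTX and 0.03 (SE 0.68) in CAU against UT. The 95% interval of CAU against CTX ran from -0.23 to 0.38, while that of CTX against UT ran from -1.41 to 1.30 and so held a difference of 2-fold in either direction.

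Star (chr8:25808474-25815982, plus strand) encodes the protein that carries cholesterol to the inner mitochondrial membrane, the rate-limiting step of acute steroid synthesis. Its log2 fold change by the authors' deposited table was -0.83 (SE 0.84, adjusted p = 0.917) in CTX against UT and -0.80 (SE 0.79, adjusted p = 1.00) in CAU against UT. Between CAU and CTX the authors' deposited table gives 0.02 (SE 0.22) for Star, with a 95% interval from -0.42 to 0.45. The treated groups thus had almost the same estimate for Star, and neither comparison with UT passed.

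Cyp11a1 (chr9:57998024-58027031, plus strand) encodes the mitochondrial side-chain cleavage enzyme that makes pregnenolone. The authors' deposited table has it at 0.34 (SE 0.73) in CTX against UT, 0.06 (SE 0.20) in CAU against CTX and 0.41 (SE 0.75) in CAU against UT. None was larger than its SE. Exons of Cyp11a1 overlap those of the predicted gene Gm17322 on the same strand in the GENCODE annotation, and how reads there were assigned is unknown here.

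Hsd3b1 (chr3:98842356-98859794, minus strand) encodes the 3-beta-hydroxysteroid dehydrogenase that turns pregnenolone into progesterone. It was at 0.55 (SE 0.28, p = 0.0524, adjusted p = 0.502) in CTX against UT by the authors' deposited table. In CAU against CTX the authors' deposited table has -0.31 (SE 0.14, p = 0.0234, adjusted p = 0.716), and in CAU against UT 0.25 (SE 0.30). Hsd3b1 has close relatives side by side on its chromosome. Of the stretches of 50 bases in its longest coding GENCODE transcript, 4.98% also occurred in transcripts of other genes, most of them of Gm12431 (2.77%). Its relatives were measured less precisely, apart from Hsd3b7, which acts in bile acid synthesis. By the authors' deposited table Hsd3b6 was at 0.02 (SE 0.54), Hsd3b3 at 0.85 (SE 0.98), Hsd3b2 at 0.77 (SE 2.75), Hsd3b5 at 1.87 (SE 2.51) and Hsd3b7 at -0.20 (SE 0.19) in CTX against UT. For Akr1c18 the share was 0.608%, and for the other 8 members it was 0.

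Cyp17a1 (chr19:46667165-46673000, minus strand) encodes the theca enzyme that makes androgens. In CTX against UT it was at -0.30 by the authors' deposited table with an SE of 1.27, the largest SE of any member, and a 95% interval from -2.79 to 2.19. The authors' deposited table gives 0.47 (SE 0.45) in CAU against CTX and 0.17 (SE 1.26) in CAU against UT. As a fold, the 95% interval of CTX against UT ran from 0.144 to 4.56, while Cyp17a1 would have needed a 20.5-fold difference to pass.

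Cyp19a1 (chr9:54165937-54268164, minus strand) encodes aromatase, the granulosa enzyme that turns androgens into estrogens. Its estimate was 2.12-fold higher in CTX than in UT by the authors' deposited table (1.08 on the log2 scale, SE 0.52, p = 0.0380, adjusted p = 0.440). The authors' deposited table gives almost the same value in CAU against UT (1.10, SE 0.54, p = 0.0435, adjusted p = 1.00), and 0.00 (SE 0.30) between CAU and CTX, with a 95% interval from -0.59 to 0.60. Both comparisons with UT share the UT libraries, so the likeness of their values is no second observation.

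Aromatase transcripts start at several first exons that differ between tissues, and the deposited value is for the gene as a whole. RefSeq (GRCm38.p6) lists 3 starts for Cyp19a1, whose 250 upstream bases are shown because the fold change adds up transcripts from all of them. They lie on the minus strand at chr9:54268165-54268414 (start 1), chr9:54228915-54229164 (start 2) and chr9:54193744-54193993 (start 3). Capitals mark matches to TATAAA, the letters of a TATA box, on either strand, and matches that overlap form 1 run.
Cyp19a1 start 1: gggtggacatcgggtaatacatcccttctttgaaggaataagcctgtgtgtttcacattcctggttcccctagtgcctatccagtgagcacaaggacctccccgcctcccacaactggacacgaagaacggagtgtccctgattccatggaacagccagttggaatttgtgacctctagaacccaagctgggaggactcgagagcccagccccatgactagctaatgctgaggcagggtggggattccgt
Cyp19a1 start 2: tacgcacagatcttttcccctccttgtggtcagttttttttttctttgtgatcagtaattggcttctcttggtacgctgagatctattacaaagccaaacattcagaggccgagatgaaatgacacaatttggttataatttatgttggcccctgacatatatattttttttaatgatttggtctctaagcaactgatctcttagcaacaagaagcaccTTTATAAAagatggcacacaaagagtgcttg
Cyp19a1 start 3: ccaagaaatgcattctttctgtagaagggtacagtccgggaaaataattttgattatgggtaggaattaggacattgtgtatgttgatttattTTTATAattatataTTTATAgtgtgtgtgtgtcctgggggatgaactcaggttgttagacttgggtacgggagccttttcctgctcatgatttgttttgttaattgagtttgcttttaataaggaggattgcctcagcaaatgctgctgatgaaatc
Start 2 has TATAAA close before it on its own strand, and an overlapping match on the other strand. Start 3 has matches only on the opposite strand, and start 1 has none. Of all 32851 RefSeq windows of this length, 12.4% hold TATAAA on either strand. Which of these starts the ovarian reads came from cannot be told from a value per gene.

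The promoter table held 5 of the members with 8 starts in all (Cyp11a1, Hsd3b1, Cyp19a1, Lhcgr and Akr1c18), and Star, Cyp17a1, Hsd17b1, Nr5a1 and Scarb1 had no entry. Neither AAGGTCA nor AAGGCCA, the letters of the SF-1 site, was in any of the 8 windows on either strand. One or the other occurs in 9.09% of all windows. TGACG, the core of the element bound by the cAMP-responsive factor CREB, was in 1 of the 8, at Cyp11a1, and in 17.8% of all windows. A missing match says only that these letters are not in these 250 bases.

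Hsd17b1 (chr11:101077968-101081188, plus strand) encodes the granulosa enzyme that turns estrone into estradiol. It was the member nearest to passing in CTX against UT, 1.41-fold higher in CTX by the authors' deposited table (0.49 on the log2 scale, SE 0.15, p = 0.00131, adjusted p = 0.0761). With -0.03, the genome-wide median, subtracted, its adjusted p became 0.0491. It was at -0.19 (SE 0.09, p = 0.0309, adjusted p = 0.795) in CAU against CTX, and in CAU against UT at 0.31 (SE 0.16, p = 0.0440, adjusted p = 1.00), by the authors' deposited table. Hsd17b1 had the smallest SE of the 10 members in every comparison, and all 3 of its 95% intervals lay within 2-fold.

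Akr1c18 (chr13:4132615-4150646, minus strand) encodes 20-alpha-hydroxysteroid dehydrogenase, which inactivates progesterone when the corpus luteum regresses. The authors' deposited table has it at -1.30 (SE 0.82, p = 0.114, adjusted p = 0.676) in CTX against UT, the most negative value of any member, and at -1.18 (SE 0.84, adjusted p = 1.00) in CAU against UT. Between CAU and CTX it was at 0.12 (SE 0.62) by the authors' deposited table. Akr1c18 had the widest interval of the members in CAU against CTX, from -1.10 to 1.33. Its relatives in the mouse Akr1c family did not pass either. For CTX against UT the authors' deposited table has Akr1c12 at -1.57 (SE 1.31), Akr1c19 at -1.60 (SE 2.08), Akr1c20 at 0.98 (SE 2.44), Akr1c13 at 0.43 (SE 0.20, p = 0.0357, adjusted p = 0.433), Akr1cl at 0.23 (SE 0.22) and Akr1c14 at 0.15 (SE 0.14).

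Lhcgr (chr17:88716384-88792059, minus strand) encodes the luteinizing hormone receptor of theca, luteal and mature granulosa cells. Values of 0.19 (SE 0.75) in CTX against UT, 0.13 (SE 0.44) in CAU against CTX and 0.33 (SE 0.82) in CAU against UT are given by the authors' deposited table. All 3 were smaller than their SE. Fshr, which encodes the follicle-stimulating hormone receptor, was at 0.55 (SE 0.33, adjusted p = 0.623) in CTX against UT by the authors' deposited table, and was singled out here as the partner receptor, with its values known.

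Nr5a1 (chr2:38692656-38714542, minus strand) encodes SF-1. In CAU against CTX it was at -0.34 by the authors' deposited table (SE 0.10, 95% interval from -0.53 to -0.15, p = 0.000541, adjusted p = 0.0905), 0.792 times the CTX value. Its p-value ranked 115 among 19245 genes, and 85 genes passed. A log2 fold change of 0.36 in size would have been needed at this SE. With the z values of all genes rescaled to unit spread, its adjusted p was 0.00653. In the authors' deposited table Nr5a1 was at 0.38 (SE 0.44) in CTX against UT and at 0.05 (SE 0.33) in CAU against UT.

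The SEs of all 10 members were larger in comparisons with UT than between the treated groups, much larger for some and little for others. The members were chosen with earlier results of these data known, so this is a description only. The median SE of the 10 was 0.71 in CTX against UT, 0.21 in CAU against CTX and 0.71 in CAU against UT, whereas over all genes it was 0.21, 0.18 and 0.24. For Scarb1 the SE of CTX against UT was 4.40 times that of CAU against CTX, for Nr5a1 4.50 times, for Star 3.75 times and for Cyp11a1 3.67 times. For Cyp17a1 it was 2.83 times and for Hsd3b1 2.08 times. These 6 of 10 members had a ratio of at least 2, as did 1.93% of the 18773 genes with all 3 comparisons. All members were measured in the same UT libraries, so their ratios are not separate observations. The median ratio over those genes was 1.05, and all 10 members lay above it, the lowest being Akr1c18 at 1.33. By rank, Nr5a1 was 8, Scarb1 10, Star 17, Cyp11a1 18 and Cyp17a1 45 of 18773.

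**Figure D2:**
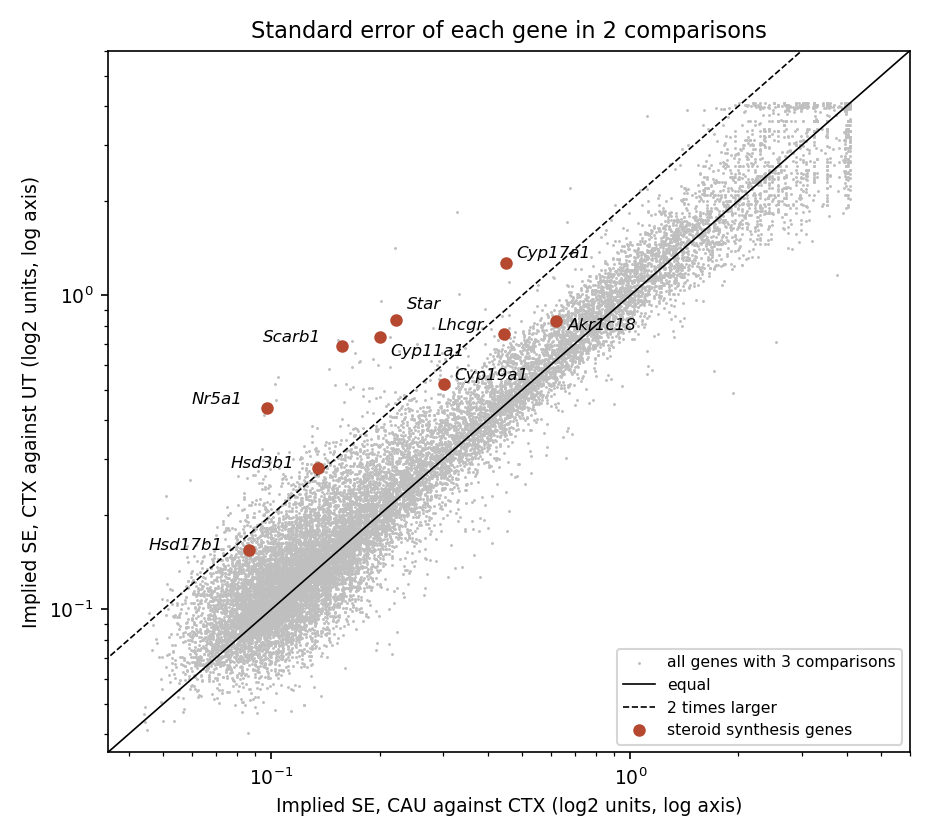
Implied SE in CTX against UT (vertical, log axis) against that in CAU against CTX (horizontal, log axis), with each grey point a gene and the 10 members in red. The solid line marks equal SEs and the dashed line an SE that is 2 times larger with UT, above which lie 6 members, with Scarb1, Nr5a1, Star and Cyp11a1 standing well apart from the mass of genes.

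If the squared SE of a comparison is the sum of a part from each of its groups, the 3 comparisons give the part of each group. On this reckoning UT had the largest part for all 10 members, against 57.8% of all genes, and the median UT share of the sum was 78.2% for the members and 42.9% over all genes. The share was 94.9% for Scarb1, 93.0% for Cyp11a1, 91.4% for Star and 56.9% for Akr1c18. Star and Nr5a1 gave a negative part for CAU, which was counted as 0, so their shares are approximate. A negative part for some group arose for 528 of the 18773 genes, so the assumed sum does not hold for every gene. The shares are thus a rough split of the SEs and no measured spread among the UT libraries. Whether the larger SE went with a lower level in UT was not tested. By the authors' deposited table, Scarb1 was at 0.964 times its UT level in CTX and 1.02 times in CAU. Star was at 0.563 and 0.573 times, Cyp17a1 at 0.811 and 1.13 times, and Cyp11a1 at 1.27 and 1.32 times. Nr5a1 was at 1.3 and 1.03 times and Hsd3b1 at 1.46 and 1.19 times. These estimates were imprecise, with a 95% interval from 0.377 to 2.46 times for Scarb1 in CTX against UT. For Cyp19a1, whose estimate was 2.12-fold higher in CTX, a lower level and a wider spread in UT cannot be told apart. Values per library are not in the table, so no library can be named.

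The SE fixed how large a difference each gene needed in order to pass. In CTX against UT the largest p-value that passed was 0.000612, so a gene needed a log2 fold change of 3.43 times its SE. For the members this ran from 0.53 (Hsd17b1) to 4.35 (Cyp17a1). Star would have needed a 7.27-fold difference, Akr1c18 7.09-fold, Cyp11a1 5.72-fold and Cyp19a1 3.46-fold. In CAU against CTX the needed log2 fold changes ran from 0.32 (Hsd17b1) to 2.29 (Akr1c18), and Star would have needed 1.77-fold. In CAU against UT, where 10 genes passed in all, they ran from 0.68 to 5.45. A difference of less than 3-fold would have been enough in both comparisons with UT only for Hsd17b1, Hsd3b1 and Nr5a1.

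**Figure D3:**
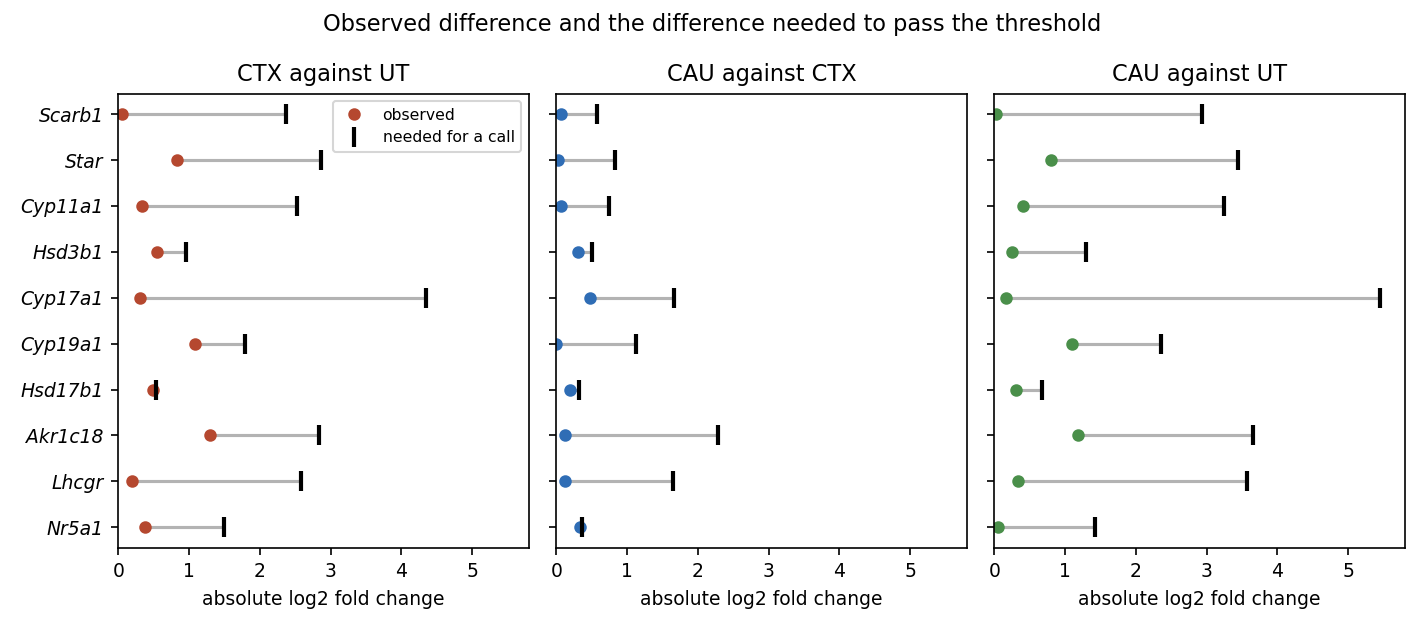
Absolute log2 fold change observed (points) and needed at the gene's own SE to reach an adjusted p under 0.05 (black ticks) for the 10 genes in 3 comparisons. Hsd17b1 in CTX against UT (0.49 observed, 0.53 needed) and Nr5a1 in CAU against CTX (0.34 observed, 0.36 needed) came closest.

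The wider pathway was described with 11 lists of other genes, of which 109 of 115 were in the table. In CTX against UT, 2 of 107 tested genes fell and none rose (1.87%, beside 1.29% of all genes), with a median of -0.03 on the log2 scale. By the authors' DESeq2 test 0 of 109 passed in CAU against CTX and 0 of 109 in CAU against UT, beside 0.442% and 0.0518% of all genes. Before adjustment, 15 genes had a p-value under 0.05 in CTX against UT (14% beside 10.2% of all genes), 15 in CAU against CTX (13.8% beside 5.36%) and 7 in CAU against UT (6.42% beside 3.46%).

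Of 18 cholesterol supply genes, 1 fell in CTX against UT and none rose. This was Apoe, which encodes the lipoprotein component apolipoprotein E, made by macrophages as well as steroid-forming cells, at -0.56 (SE 0.10, adjusted p = 9.04e-06) by the authors' deposited table. Apoe in CAU against CTX was at 0.07 (SE 0.15), and in CAU against UT at -0.48 (SE 0.18, adjusted p = 0.908), by the authors' deposited table. Of 15 transcription factors, 1 fell in CTX against UT, the orphan nuclear receptor gene Nr4a3 at -1.73 (SE 0.42, adjusted p = 0.00805) by the authors' deposited table. For Nr4a3 in CAU against UT the authors' deposited table has -1.76 (SE 0.44, adjusted p = 0.109), and in CAU against CTX -0.03 (SE 0.43).

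Other regulators came near the threshold without passing. In CTX against UT, the authors' deposited table has Nr5a2, a granulosa and luteal relative of Nr5a1, at 0.46 (SE 0.14, adjusted p = 0.0666) and Gata6, a GATA factor of ovarian somatic cells, at 0.32 (SE 0.10, adjusted p = 0.0853). For CAU against CTX it lists the C/EBP gene Cebpa at -0.48 (SE 0.13, adjusted p = 0.0598) and the kinase gene Sgk1 at 0.67 (SE 0.19, adjusted p = 0.0758), by the authors' deposited table. These 4 genes were named for their small adjusted p after their values were seen.

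No gene passed in the other 9 lists in any comparison. In CTX against UT their medians were -0.04 for 7 electron transfer partners of the steroid-forming cytochromes P450, 0.77 for 5 other 3-beta-hydroxysteroid dehydrogenases (median SE 0.98) and -0.18 for 9 other 17-beta-hydroxysteroid dehydrogenases. They were 0.23 for 9 aldo-keto and 5-alpha reductases, -0.82 for 7 genes of adrenal-type steroid synthesis (median SE 0.89) and -0.12 for 5 estrogen and sulfate clearance genes. For 14 genes of gonadotropin and cAMP signalling the median was 0.10, for 10 ovulatory targets of luteinizing hormone -0.27 and for 9 steroid hormone receptors -0.13. These 9 medians in CAU against CTX lay between -0.13 and 0.90, the highest for the 5 clearance genes, whose median SE was 1.01.

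**Figure D4:**
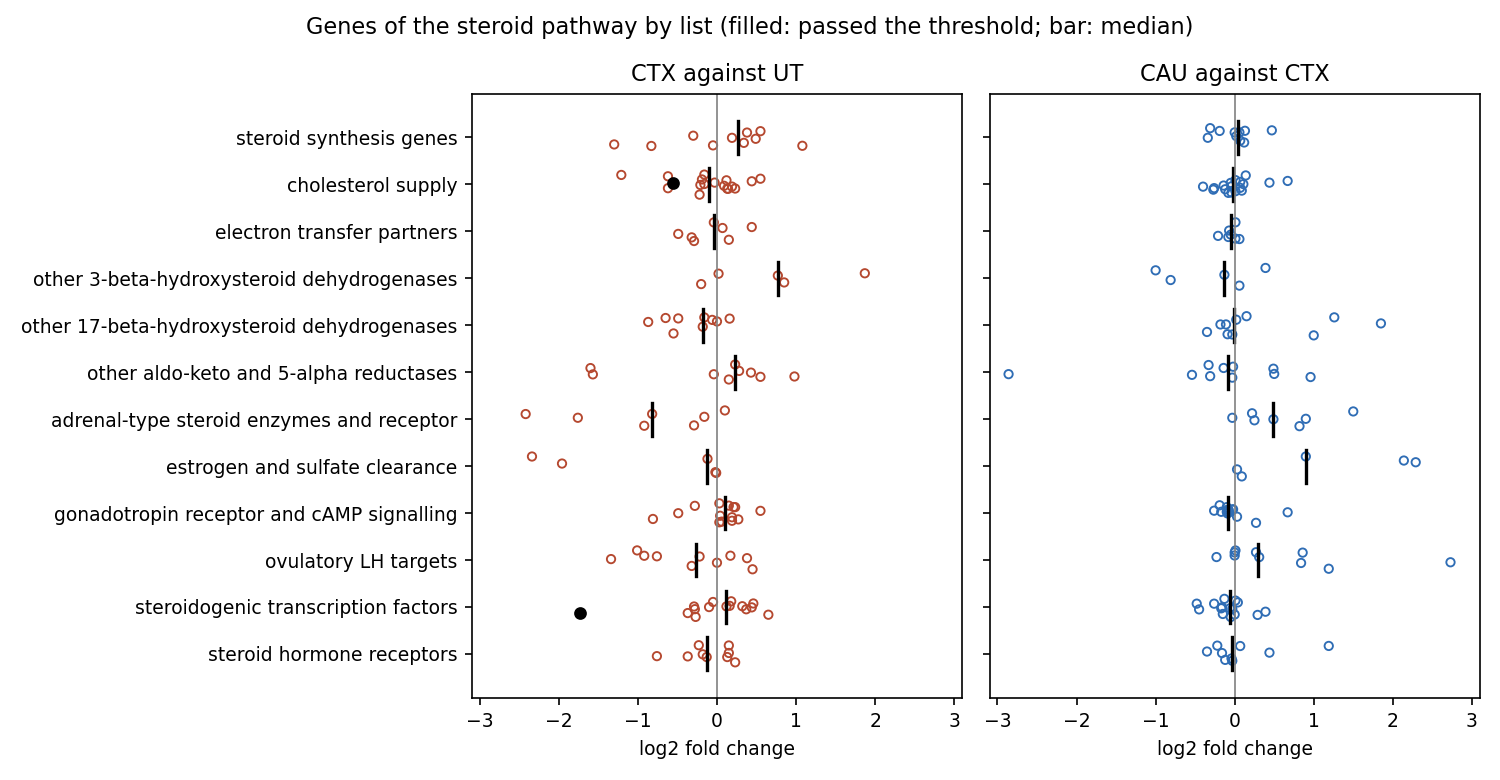
Log2 fold changes of single genes (circles) in the 10 members and 11 pathway lists, for CTX against UT and CAU against CTX, with list medians as bars and genes that passed filled. The filled points are Apoe (-0.56) and Nr4a3 (-1.73) in CTX against UT, and no point is filled in CAU against CTX.

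Genes of the partners that pass electrons to mitochondrial cytochromes P450 also had large ratios of SEs. The SE of Fdx1, which encodes ferredoxin, was 0.96 in CTX against UT and 0.20 in CAU against CTX, a ratio of 4.73, and that of Fdxr, which encodes its reductase, was 0.46 and 0.10, a ratio of 4.52. Srd5a1, a 5-alpha reductase gene, gave 4.26, Mgarp, a mitochondrial protein gene of steroid-forming cells, 3.82, and the theca hormone gene Insl3 3.04. These 5 were picked for their ratios after they were seen. Across the 11 pathway lists, a ratio of at least 2 (1.93% of all genes) was found in 2 of 18 cholesterol supply genes, 2 of 7 electron transfer partners, 3 of 9 aldo-keto and 5-alpha reductases, 3 of 15 transcription factors, 2 of 14 gonadotropin and cAMP signalling genes and 1 of 7 adrenal-type genes. It was found in 0 of 5 other 3-beta-hydroxysteroid dehydrogenases, 0 of 9 other 17-beta-hydroxysteroid dehydrogenases, 0 of 5 clearance genes, 0 of 10 ovulatory targets and 0 of 9 hormone receptors. Among cell type markers it was found in 3 of 11 for granulosa cells, 1 of 6 for theca cells, 1 of 14 for macrophages, 1 of 8 for adipocytes, and 0 of 4 for luteal cells, 0 of 11 for oocytes, 0 of 8 for surface epithelium, 0 of 6 for oviduct epithelium and 0 of 7 for endothelium.

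Markers of other ovarian and neighbouring cells gave these values in the same comparisons. In CTX against UT, 4 of 11 granulosa markers rose (median 0.45), 6 of 14 macrophage markers fell (median -1.03) and 2 of 8 surface epithelium markers fell (median -1.39), while none of 4 luteal (median -0.05), 6 theca (median 0.20), 11 oocyte (median 0.12), 6 oviduct epithelium (median -1.18), 8 adipocyte (median -1.45) or 7 endothelial markers (median -0.22) passed. Of all genes tested in that comparison, 0.472% passed as higher and 0.820% as lower. The granulosa markers with the smallest adjusted p by the authors' deposited table were Inhbb, an inhibin and activin subunit gene (1.00, SE 0.21, adjusted p = 0.000378), Fst, the follistatin gene (0.67, SE 0.15, adjusted p = 0.00126), and Serpine2 (0.35, SE 0.09, adjusted p = 0.0147). For macrophages they were Csf1r, a growth factor receptor gene (-1.29, SE 0.18, adjusted p = 1.16e-09), and the complement genes C1qb (-0.96, SE 0.16, adjusted p = 4.13e-06) and C1qc (-0.96, SE 0.19, adjusted p = 0.000183). The epithelial markers that fell were Upk3b (-1.27, SE 0.32, adjusted p = 0.0111) and Lrrn4 (-1.57, SE 0.43, adjusted p = 0.0233), by the authors' deposited table. Between CAU and CTX, Inhbb fell (-0.47, SE 0.09, adjusted p = 0.000565), and C1qb (0.51, SE 0.12, adjusted p = 0.00630) and C1qc (0.43, SE 0.11, adjusted p = 0.0171) rose, by the authors' deposited table. Of all genes tested in CAU against CTX, 0.312% passed as higher and 0.130% as lower. The medians there were -0.17 for granulosa (9 of 11 negative) and 0.39 for macrophage markers (13 of 14 positive). They were 0.62 for surface epithelium (8 of 8 positive) and 1.25 for oviduct epithelium (6 of 6 positive). Adipocyte markers had -0.13 (8 of 8 negative), endothelial -0.15 (7 of 7 negative) and oocyte -0.13 (11 of 11 negative). For luteal markers the median was 0.09 (3 of 4 positive) and for theca markers 0.04 (4 of 6 positive). None of these markers passed in CAU against UT, where the medians were 0.28 for granulosa, -0.50 for macrophage, -0.55 for surface epithelium, 0.08 for oviduct epithelium, -1.57 for adipocyte, -0.25 for endothelial, 0.03 for oocyte, 0.12 for luteal and 0.23 for theca markers. Of all genes tested in CAU against UT, 0.0518% passed. The 8 immediate early genes, which respond to handling of tissue, had medians of -0.33, 0.02 and -0.25 in the 3 comparisons, and none passed. Levels are not in the table, so no summed marker level can be given, and the part of other cells in the values of the 10 genes was not tested.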

How the data were processed

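The 9 RNA-seq samples of ovary fell into 3 groups of 3 (UT, CTX, CAU) by their titles. The authors' tools, which the submitters' processing notes name without roles or order, were RSEM 1.3.1, HISAT2, DESeq2 1.44.0 and Bowtie2, with the build GRCm38.p6. Filters, covariates, strand and annotation are unknown here. The authors' deposited table gives 1 log2 fold change per gene and comparison, and, per the file headers, a DESeq2 p-value and q-value. The q-value, called adjusted p, differed by at most 7.74e-05 from Benjamini-Hochberg values computed anew from the p-values (19260, 19245 and 19302). Genes with blank values (257, 272 and 215) were left out. Depth per library is unknown here, so precision is given by the implied SE, the absolute log2 fold change over the absolute normal z of its p-value. This takes the test to be a Wald test on unshrunken values. The sum of the values for CTX against UT and for CAU against CTX lay within 0.01 of that for CAU against UT plus a constant for 18772 of 18773 genes and all 10 members.

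The members and lists were chosen with earlier results of these data known. No list test was made. The rule for naming took all members and, from each other list, genes that passed (up to 3 per comparison, smallest adjusted p first). It allowed the gene with the smallest SE where none passed, which was not used, and Hsd3b and Akr1c paralogs. The text says where a gene falls outside it. A count fit had been planned in case the file held counts, and was not needed. Gene positions and promoters came from RefSeq tables of GRCm38.p6, matched by gene ID, and transcripts and exons from GENCODE M21 of GRCm38. Alternatives were other thresholds, a centred median, scaled z, a limit on the SE, a least fold change and a t distribution. Scripts were tested on simulated data. The software was matplotlib 3.10.9, scipy 1.17.1, numpy 2.4.6 and pandas 2.3.3 under Python 3.11.15.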

Additional observations from a re-analysis of the deposited data

How the results depend on the processing

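Over 6 alternatives each, the log2 fold changes of the 10 members in 3 comparisons gave 178 values. Of these 174 kept their sign and their side of the threshold, 4 moved past it and 0 changed sign. Only subtracting the genome-wide median altered the log2 fold changes, and only slightly, so signs had little room to change. No member had passed before, so a stricter threshold or a least fold change could not move any member past it. The count of 174 is thus largely fixed by the settings and is no measure of robustness. The limit on the SE left out Cyp17a1 in both comparisons with UT. The 4 were Hsd17b1 in CTX against UT and Nr5a1 in CAU against CTX, each at 2 alternatives.

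At an adjusted p threshold of 0.10, 1 member passed in CTX against UT (adjusted p = 0.0761, Hsd17b1) and 1 in CAU against CTX (adjusted p = 0.0905, Nr5a1), and the pathway lists had 4 and 2 genes past it. After the genome-wide median was subtracted, 1 member (Hsd17b1, adjusted p = 0.0491, and from 0.0491 to 0.0884 over its alternatives) and 4 pathway genes passed in CTX against UT. With z scaled to a spread of 1, 1 member (Nr5a1, adjusted p = 0.00653, and from 0.00653 to 0.0957 over its alternatives) and 2 pathway genes passed in CAU against CTX, and 5 pathway genes in CAU against UT. That spread was 0.841 in CAU against CTX and 0.711 in CAU against UT. With a least change of about 1.5-fold, 1 pathway gene passed in CTX against UT. Over all genes, 249 passed in CTX against UT, 117 at a threshold of 0.01, 415 at 0.10 and 146 with the least change. Centring gave 290 there, 156 higher and 134 lower, beside 91 higher and 158 lower. In CAU against CTX 85 passed, 43 at a threshold of 0.01 and 237 with scaled z, and in CAU against UT 10 passed, and 255 with scaled z. The cause was not tested. With a t distribution of 4 degrees of freedom, 1, 7 and 3 members had intervals within 2-fold, as with a normal distribution. The SE was then implied anew from the same p-value, so intervals widened at large p-values and narrowed at small ones. In CTX against UT, Star ran from -2.86 to 1.21 by t and from -2.47 to 0.81 by normal. Hsd17b1 ran from 0.32 to 0.66 by t and from 0.19 to 0.79 by normal. The equal counts are thus no check with wider intervals throughout.

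No paired analysis was possible because the table holds no value per library. Leaving out each replicate was not run, as it needs the same values.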

Other observations

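The 20 genes with the largest ratio of the SE in CTX against UT to that in CAU against CTX, a list drawn up after the values were seen, held 4 members (Nr5a1, Scarb1, Star and Cyp11a1) and 4 genes of the other steroid pathway lists (Fdx1, Fdxr, Srd5a1 and Mgarp), with ratios from 3.67 to 4.73. The other genes began with Aqp2, a water channel gene, at 6.41, Ece2 at 5.58, Bpifb4 at 5.30 and Tmem86a at 5.14, and ended with Cat, the catalase gene, at 3.51 and Ccdc3 at 3.50.

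The adrenal receptor gene Mc2r, which also occurs in fat cells, was at -2.42 (SE 0.87, p = 0.00530, adjusted p = 0.165) in CTX against UT by the authors' deposited table and was named after its value was seen.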
